A study of Mus musculus with 17 samples.

Results

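RNA was sequenced from 3 libraries that express YAP-M without its intrinsically disordered region (IDR), written YAP-MΔIDR in the labels and YAP-M-dIDR here, and from 2 libraries of neural progenitor cells that overexpress YAP, called NSC-YAP here. They were chosen by their titles, and they are 5 of the 12 RNA-seq libraries of a mouse series of 17 samples. The series is about how fusion proteins of YAP form condensates in ependymoma above the tentorium, a brain tumour named for the ependymal cells that line the ventricles. All 52850 gene symbols of the deposited tables belong to the comparison, of which 18329 reached a CPM (counts per 1e+06 counts of the library) of 1 in at least 2 of the 12 libraries and were tested. Both groups are labelled as progenitors derived from embryonic stem (ES) cells and kept in neural stem cell medium with EGF, basic FGF and heparin. The YAP-M-dIDR libraries carry a second, different label, brain tumour tissue as their source. The labels give neither the promoter nor the species of either construct, and neither strain nor animal age. Nothing in them says whether replicates are separate cultures or animals, so p-values rest on the spread between libraries. That spread was taken in 1 fit over all 12 RNA-seq libraries, including those of the other groups. The constructs differ by the fusion partner as well as by the IDR, so the comparison does not isolate the IDR, and differences of the construct cannot be told apart from those of the material.

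YAP (Yap1) is a coactivator of transcription that the Hippo kinases keep out of the nucleus, and in the nucleus it works through the DNA-binding TEAD proteins. YAP fusions that escape this control, YAP1-MAMLD1 among them, are known drivers of supratentorial ependymoma. MAMLD1 is a mastermind-like protein, and its disordered stretch has been linked to the formation of nuclear condensates. An intrinsically disordered region is a stretch of protein without a fixed fold. Neural progenitors depend on the SOX2 family of factors and on Notch signalling, which keeps them undifferentiated.

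The 5 libraries held 22247274 to 25463303 counts in genes. Levels are given in CPM, listed for YAP-M-dIDR replicates 1, 2 and 3 and then for NSC-YAP replicates 1 and 2. Log2 differences are YAP-M-dIDR minus NSC-YAP with an approximate standard error (SE). It is the size of the difference divided by the square root of edgeR's F statistic. For genes with only a few counts in NSC-YAP, this SE can be smaller than counting error alone. A gene was called higher or lower when its adjusted p was under 0.05 and its log2 difference at least 1 in size. Across genes, rank correlations were 0.964 within YAP-M-dIDR, 0.997 within NSC-YAP and 0.755 between the groups, and 0.940 between YAP-M-dIDR and the YAP-M tumours of the series. Genes are not independent replicates, so these values are a description.

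The YAP-M-dIDR libraries held transcripts of cell types that the NSC-YAP libraries nearly lacked. All 18 genes of the microglia and macrophage list were higher in YAP-M-dIDR, and their summed level was 4232 to 5712 CPM against 44.4 to 47.2 CPM. The 12 endothelial genes summed to 237 to 369.8 CPM against 31.4 to 32.8 CPM, the 11 neutrophil and mast cell genes to 29.8 to 60.1 CPM against 0.122 CPM, and the 12 lymphocyte genes to 4.62 to 7.12 CPM against 0.488 to 0.612 CPM. The macrophage sum of the 4 YAP-M tumours, 3259 to 4704 CPM, overlapped that of YAP-M-dIDR. Macrophages, vessels and blood cells are part of brain or tumour tissue, so these levels go against the label of the YAP-M-dIDR libraries as a progenitor culture and not against their label as tumour tissue. In bulk RNA, fewer cells of a type and less RNA per cell cannot be told apart. The share of these cells in the other differences below was not tested. Transcripts that mark sex also differed among the libraries: Xist, the RNA that silences an X chromosome in females, was at 288, 396 and 22.7 CPM and 0.244 and 0.326 CPM, and the Y-linked Ddx3y at 0, 0.135 and 69.9 CPM and 48 and 50.3 CPM. The Xist difference, 9.66 ± 3.31, lost its call without either NSC-YAP library (adjusted p = 0.114 and 0.111) and with quantile scaling (0.0509), and Ddx3y was not called (-1.07 ± 2.40, or -9.43 without YAP-M-dIDR replicate 3, adjusted p = 0.0601). YAP-M-dIDR replicates 1 and 2 were thus high in Xist and without appreciable Ddx3y, while replicate 3 and both NSC-YAP libraries had Ddx3y.

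**Figure D1:**
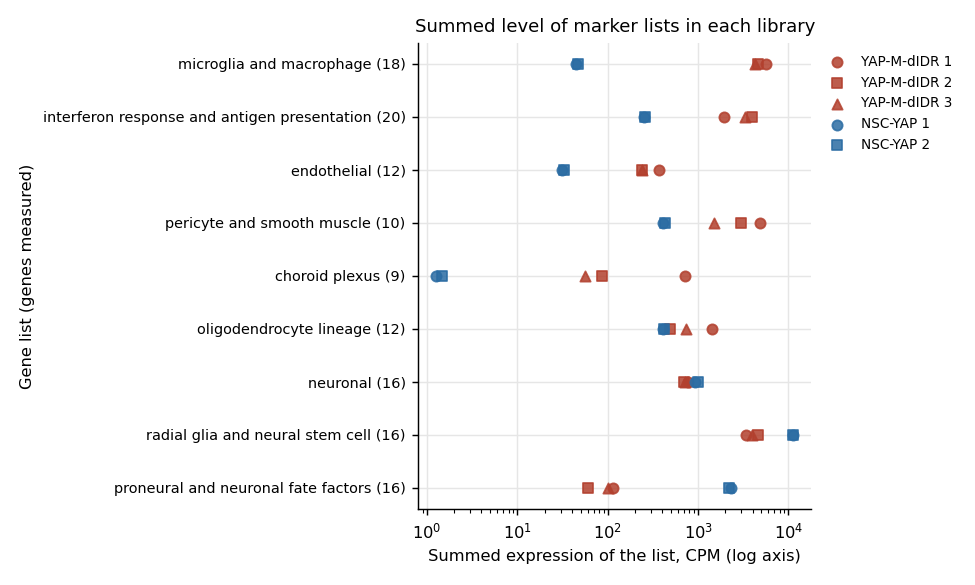
Summed CPM of the marker lists of cell types in each library on a log axis, 1 point a library, with YAP-M-dIDR and NSC-YAP in different colours. The macrophage list lies at 4232 to 5712 CPM in YAP-M-dIDR and at 44.4 to 47.2 CPM in NSC-YAP, and the radial glia list lies the other way, at 3365 to 4611 CPM and 11274 to 11336 CPM.

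About as many genes were called as were not. Of the 18329 genes tested, 5026 (27.4%) were called higher in YAP-M-dIDR and 3744 (20.4%) were called lower, 47.8% in all. The difference was 8-fold or more for 2719 of the genes called higher and for 910 of those called lower. All 3 YAP-M-dIDR libraries lay above both NSC-YAP libraries for 41.7% of genes tested and below both for 37.5%. Counts in gene lists are to be read against these shares, and list medians against the median log2 difference of all genes tested, 0.13. Quantile scaling lowered that median to -0.13, a shift of -0.26, and changed the share of calls that were higher from 57.3% to 44.3%, so the balance of the directions depends on the scaling. There were 163 genes with at least 5 CPM in every YAP-M-dIDR library and no count in either NSC-YAP library, and 1 gene, Olfr1349, for the opposite.

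**Figure D2:**
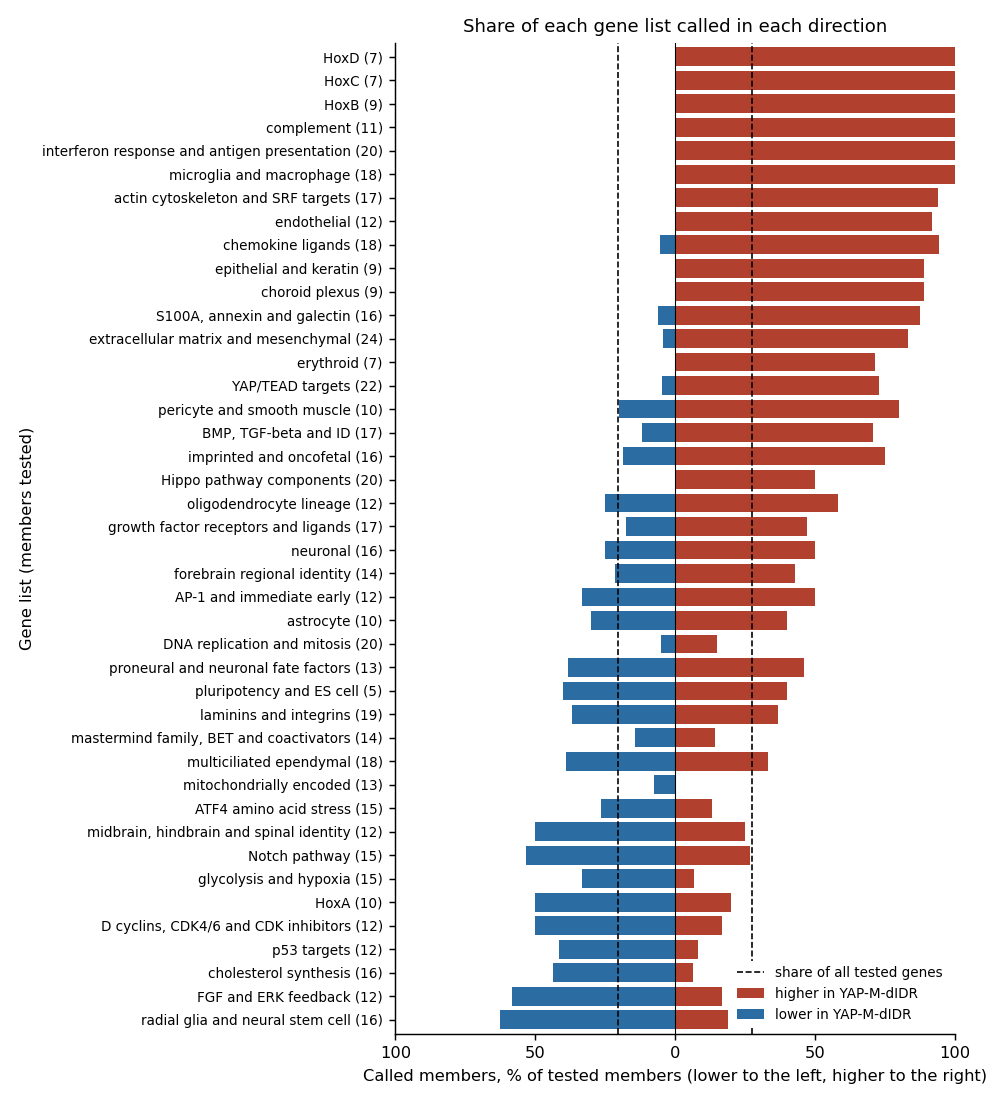
Share of the tested genes of each list that was called higher (to the right) or lower (to the left) in YAP-M-dIDR, in percent, with the shares over all genes tested, 27.4% and 20.4%, as reference lines. Macrophage, interferon and HoxB genes are called higher throughout, and the radial glia and Notch lists have most of their calls on the lower side. HoxB genes had no count in NSC-YAP, so they could not be called lower.

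The YAP transcript itself varied widely inside YAP-M-dIDR. Yap1 (ENSMUSG00000053110, chromosome 9, 7931999 to 8004596, minus strand in mm10) was at 183, 838 and 1274 CPM in YAP-M-dIDR and at 241 and 238 CPM in NSC-YAP. Replicate 1 was thus below both NSC-YAP libraries and replicates 2 and 3 far above them, so the groups overlapped. The log2 difference was 1.67 ± 0.55 (adjusted p = 0.0188, edgeR's quasi-likelihood test with Benjamini-Hochberg adjustment). This call was lost without YAP-M-dIDR replicate 3 (1.09, adjusted p = 0.0711), without NSC-YAP replicate 1 (1.66, 0.0875) and without NSC-YAP replicate 2 (1.65, 0.0925), and an exact 2-sided permutation test over the 5 libraries gave p = 0.4, where 0.1 is the smallest p that 10 splits allow. These counts join the cell's own gene with any mouse construct, since reads of the constructs were not separated. Mamld1, the mouse gene of the mastermind-like partner known from this tumour, was at 41.7, 58.9 and 49.2 CPM against 21.2 and 23.6 CPM, a log2 difference of 1.16 ± 0.19 (adjusted p = 0.000215). All 3 YAP-M-dIDR libraries lay above both NSC-YAP libraries for Mamld1, as for 41.7% of genes tested, and its spread inside YAP-M-dIDR was far smaller than that of Yap1. Reads of any mouse construct were not separated for Mamld1 either.

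Genes that YAP and TEAD are known to switch on were higher in YAP-M-dIDR. Of the 22 targets measured, 16 were called higher (background 27.4%) and 1 lower, with a median log2 difference of 2.35. Their summed level was 5165 to 6082 CPM against 994 to 997 CPM and 5838 to 6729 CPM in the YAP-M tumours, so the ranges of YAP-M-dIDR and the tumours overlapped.

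Ankrd1, a stress-induced protein of the nucleus and the muscle sarcomere, was at 1498, 1356 and 992 CPM in YAP-M-dIDR and at 0.651 and 0.163 CPM in NSC-YAP. Its log2 difference was 11.60 ± 0.79 (adjusted p = 2.91e-07), and it read 10.92 without NSC-YAP replicate 2 and 12.88 without replicate 1. The matricellular protein gene Ctgf (Ccn2) showed the same picture, at 801, 893 and 423 CPM against 0.204 and 0.285 CPM, with a log2 difference of 11.46 ± 0.45 (adjusted p = 7.2e-09). In both genes NSC-YAP was under 1 CPM although the cells overexpress YAP. The related Cyr61 (Ccn1) was already at 38.5 and 35.2 CPM in NSC-YAP and at 619.9, 695 and 686 CPM in YAP-M-dIDR, a log2 difference of 4.18 ± 0.18. Amotl2, a junction scaffold that binds YAP, was at 568, 723 and 742 CPM against 107 and 111 CPM, and Axl, a receptor tyrosine kinase, at 585, 679 and 689 CPM against 139.7 and 136 CPM. Their log2 differences were 2.64 ± 0.15 and 2.24 ± 0.12, with no overlap between the groups. Ajuba, a LIM protein that holds back the LATS kinases, rose by 3.78 ± 0.23 and Lats2, one of these kinases and itself a target, by 2.84 ± 0.14. Further targets called higher were Myof (6.29), Nuak2 (4.84), Crim1 (3.40), Rbms3 (2.53), Nt5e (2.46), Dock5 (1.84), Arhgef17 (1.75), F3 (1.46) and Tgfb2 (1.33), given as log2 differences. Fjx1, a secreted relative of the Four-jointed protein, was the target called lower, at 14.3, 6.98 and 11 CPM against 76.3 and 77.9 CPM (-2.84 ± 0.24, adjusted p = 1.36e-06). The 5 targets not called were Asap1 (0.49), Ptpn14 (0.50), Foxf2 (0.70), Gadd45a (0.01) and Igfbp3 (-0.66).

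**Figure D3:**
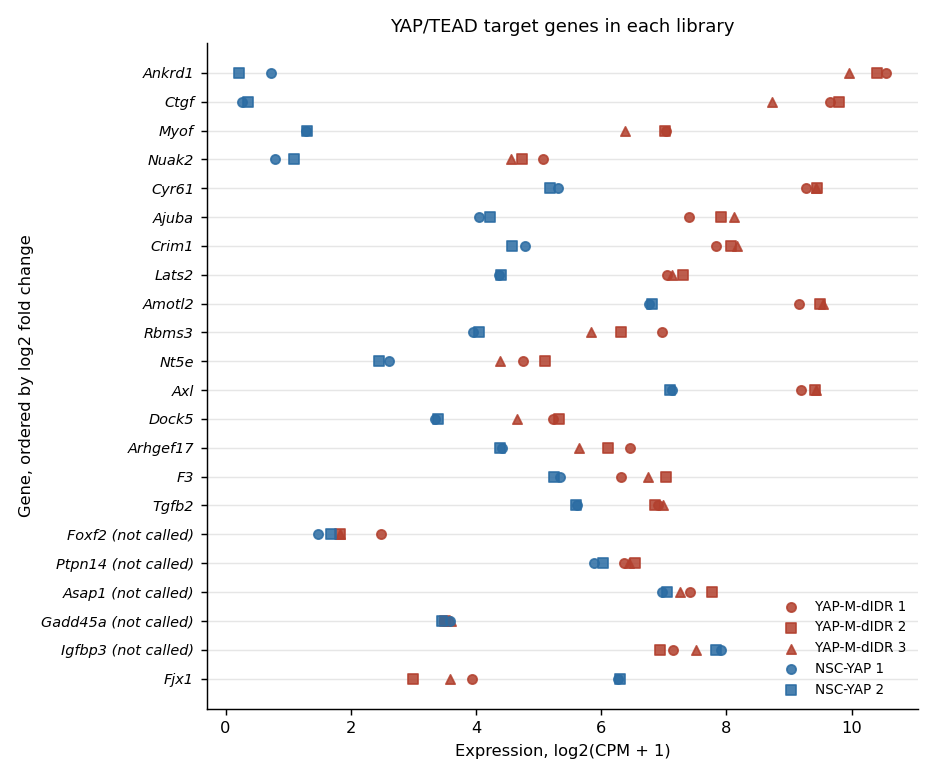
Expression of the YAP/TEAD targets as log2(CPM + 1) in the 5 libraries, 1 point a library. Ankrd1 and Ctgf lie below 1 CPM in both NSC-YAP libraries and above 400 CPM in all 3 YAP-M-dIDR libraries, while the points of Gadd45a fall together and Fjx1 lies lower in YAP-M-dIDR.

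The promoters of the targets are shown because TEAD proteins bind the letters GGAATG, or CATTCC on the other strand. In RefSeq's promoter table (GRCm38.p6), 16 of the 22 targets had an entry, and 7 of them held the motif in the 250 bases before the start: Ankrd1, Ccn1, Ajuba, Amotl2, Axl, Crim1 and Ptpn14. Of all 27025 genes with an entry, 14.4% held it, and the share was 14.7% among genes called higher, 13.2% among those called lower and 12.6% among those not called. The 4 stretches below, 5′ to 3′ on the strand of the gene, belong to targets called higher, and the capitals mark the motif on either strand. They lie at chr19:36119945-36120094 (minus strand) for Ankrd1, chr3:145650026-145650145 (minus) for Ccn1, chr14:54577752-54577871 (minus) for Ajuba and chr9:102717674-102717793 (plus) for Amotl2. A match is a description of the letters and not a bound site.
Ankrd1: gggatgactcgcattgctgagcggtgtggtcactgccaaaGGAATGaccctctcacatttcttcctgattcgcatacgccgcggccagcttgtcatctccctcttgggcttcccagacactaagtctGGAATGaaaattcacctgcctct
Ccn1: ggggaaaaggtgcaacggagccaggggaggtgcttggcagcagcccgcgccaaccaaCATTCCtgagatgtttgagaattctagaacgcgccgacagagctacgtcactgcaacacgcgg
Ajuba: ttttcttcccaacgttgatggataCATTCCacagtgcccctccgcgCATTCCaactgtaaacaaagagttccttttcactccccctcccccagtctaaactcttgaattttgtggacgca
Amotl2: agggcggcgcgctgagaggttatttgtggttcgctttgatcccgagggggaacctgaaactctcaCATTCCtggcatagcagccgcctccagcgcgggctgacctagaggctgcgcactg
Ankrd1 and Ajuba each held the motif at 2 places, 210 and 123 bases before the start in Ankrd1 and 186 and 164 bases in Ajuba, and the matches of Ccn1 and Amotl2 began 103 and 65 bases before it.

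Parts of the Hippo pathway and the TEAD genes were also higher. Of 20 components, 10 were called higher and 0 lower (background 27.4% and 20.4%), with a median log2 difference of 1.01. Tead4 stood at 36.2, 76.1 and 76.3 CPM against 1.14 and 1.26 CPM, a log2 difference of 5.70 ± 0.49 (adjusted p = 1.55e-06). Tead1 was at 365, 590.1 and 631 CPM against 104 and 116 CPM (2.27 ± 0.22), and Tead3 rose by 1.20 ± 0.16. Per kilobase of transcript, the mean level was 39 CPM for Tead1, 37.9 for Tead2, 17.5 for Tead4 and 11.4 for Tead3 in YAP-M-dIDR, and 8.1, 26.3, 0.334 and 4.98 in NSC-YAP. Tead2 was thus the most abundant of the family per length in NSC-YAP, whereas Tead1 and Tead2 were level in YAP-M-dIDR, where Tead1 ranged from 365 to 631 CPM. Vgll3, a cofactor that competes with YAP for TEAD, changed most, at 195, 221 and 184 CPM against 0.326 and 0.204 CPM (9.53 ± 0.36, adjusted p = 5.93e-09). Among the scaffolds and kinases, Amot (2.87), Wwc2 (2.63), Stk4 (2.14), Mob1a (1.62) and Nf2 (1.06, not called at 0.96 without YAP-M-dIDR replicate 2 or at 1.00 without NSC-YAP replicate 1) were called higher. Wwtr1, which encodes the YAP relative TAZ, was at 127, 131 and 129.6 CPM and 128 and 139.8 CPM and did not pass the test (-0.06 ± 0.13).

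Most of the neural progenitor genes were lower in YAP-M-dIDR. Of 16 radial glia and neural stem cell genes, 10 were called lower and 3 higher (background 20.4% and 27.4%), with a median log2 difference of -2.73, and their summed level was 3365 to 4611 CPM against 11274 to 11336 CPM. Sox2, a factor that maintains neural stem cells, was at 14.3, 5.27 and 10.3 CPM in YAP-M-dIDR and at 499.6 and 476 CPM in NSC-YAP. Its log2 difference was -5.61 ± 0.32 (adjusted p = 7.08e-08), and every YAP-M-dIDR library lay far below both NSC-YAP libraries. Sox1, a close relative of Sox2, was at 1.92, 0.135 and 1.1 CPM against 110.03 and 107 CPM (-6.67 ± 0.54, -7.43 without YAP-M-dIDR replicate 1). Slc1a3, the glutamate transporter of radial glia, was among the most abundant of these genes in NSC-YAP at 3750 and 3697 CPM and was at 139, 43.1 and 104 CPM in YAP-M-dIDR (-5.29 ± 0.40). Fabp7, a fatty acid binding protein of radial glia, was at 56.6, 35 and 36.6 CPM against 982 and 942 CPM (-4.49 ± 0.28). Ptprz1 (-5.42), Prom1 (-3.07), Sox9 (-2.38) and Msi1 (-2.13) were lower too. In contrast, Nes, the intermediate filament nestin, was higher at 350.1, 438 and 406 CPM against 173 and 172 CPM (1.21 ± 0.22, adjusted p = 0.000595), as were Emx2 (2.09 ± 0.26) and Pax6 (1.01 ± 0.38, not called, at 0.87 to 1.02, without YAP-M-dIDR replicate 1, without YAP-M-dIDR replicate 3, without NSC-YAP replicate 1 or without NSC-YAP replicate 2), both regulators of the dorsal forebrain. Vim, another intermediate filament of progenitors, was at 2208, 3305 and 2692 CPM and 2304 and 2126 CPM and was not called (0.30 ± 0.16).

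Notch receptors and ligands split by member. Of 15 Notch genes, 8 were called lower and 4 higher, with a median log2 difference of -2.70. The ligands Dll1 and Dll3, which progenitors entering differentiation display, were close to absent in YAP-M-dIDR. Dll1 was at 0.812, 0.315 and 0.442 CPM against 93.5 and 93.6 CPM (-7.46 ± 0.34, adjusted p = 1.63e-08), and Dll3 at 0.727, 0.315 and 0.309 CPM against 230.4 and 205 CPM (-8.89 ± 0.42, adjusted p = 2.1e-08). Jag1, a ligand of another family, was higher at 82.9, 83.4 and 73.9 CPM against 25.8 and 27.3 CPM (1.59 ± 0.19). Of the receptors, Notch1 was at 18.6, 17.3 and 14.8 CPM against 279 and 299.8 CPM (-4.10 ± 0.17) and Notch3 at 27.4, 13.1 and 12 CPM against 205 and 215 CPM (-3.58 ± 0.30). Hes5, the repressor that Notch switches on in neural progenitors, was at 0.94, 0.135 and 0.0442 CPM against 83.9 and 81.5 CPM. Its log2 difference was -7.75 ± 0.59 (adjusted p = 6.69e-07) and -9.77 without YAP-M-dIDR replicate 1, which held most of the counts left. Nrarp (-4.60), Hey1 (-3.74) and Lfng (-2.70) were lower as well, while Hey2 (2.88), Dll4 (1.56, not called at 0.71 with quantile scaling) and Rbpj (1.04, not called at 0.94 without YAP-M-dIDR replicate 2 or at 0.98 without YAP-M-dIDR replicate 3), the DNA-binding partner of Notch, were higher. Hes1, also a Notch target, was at 40.3, 35.5 and 30.6 CPM and 38.5 and 36 CPM and was not called (-0.07 ± 0.22). Of the mastermind coactivators of Notch, Maml2 was lower at 16.5, 10.4 and 10.3 CPM against 83.9 and 90.8 CPM (-2.82 ± 0.21), Maml3 higher (1.47 ± 0.24, not called at 0.65 with quantile scaling), and Maml1 not called (0.18 ± 0.18).

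Several factors that set glial and neuronal fate were far lower too. Olig2, the master factor of the oligodendrocyte lineage, was at 10.9, 2.57 and 8.57 CPM against 623 and 587 CPM (-6.36 ± 0.52, adjusted p = 1.07e-06), and its neighbour Olig1 at 42.8, 11.3 and 28.2 CPM against 1573 and 1501 CPM (-5.81 ± 0.48). In both genes the highest YAP-M-dIDR library was replicate 1, and the lowest replicate 2. Of 13 such factors tested, 5 were called lower and 6 higher, so that the list median, 0.50, says little, and it turned to -0.51 with quantile scaling. By summed level the list was at 60.00 to 114 CPM against 2184 to 2296 CPM. Olig1 and Olig2 made up most of this sum in NSC-YAP but not in YAP-M-dIDR. Neurod1 (-3.86) and Dlx5 (-3.19) were also called lower. Among those called higher, Dlx2, an interneuron factor, was at 16.5, 28.2 and 27.7 CPM against 3.34 and 4.28 CPM (2.66 ± 0.39), followed by Insm1 (1.63), Myt1l (3.45) and Tbr1 (2.24, 2.97 without NSC-YAP replicate 2, not called at 1.73 without NSC-YAP replicate 1 or at 0.63 with quantile scaling). Neurod2, at 1.58 to 4.95 CPM in YAP-M-dIDR, was 188 times (95% counting interval 33.5 to 7473) its NSC-YAP level.

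**Figure D4:**
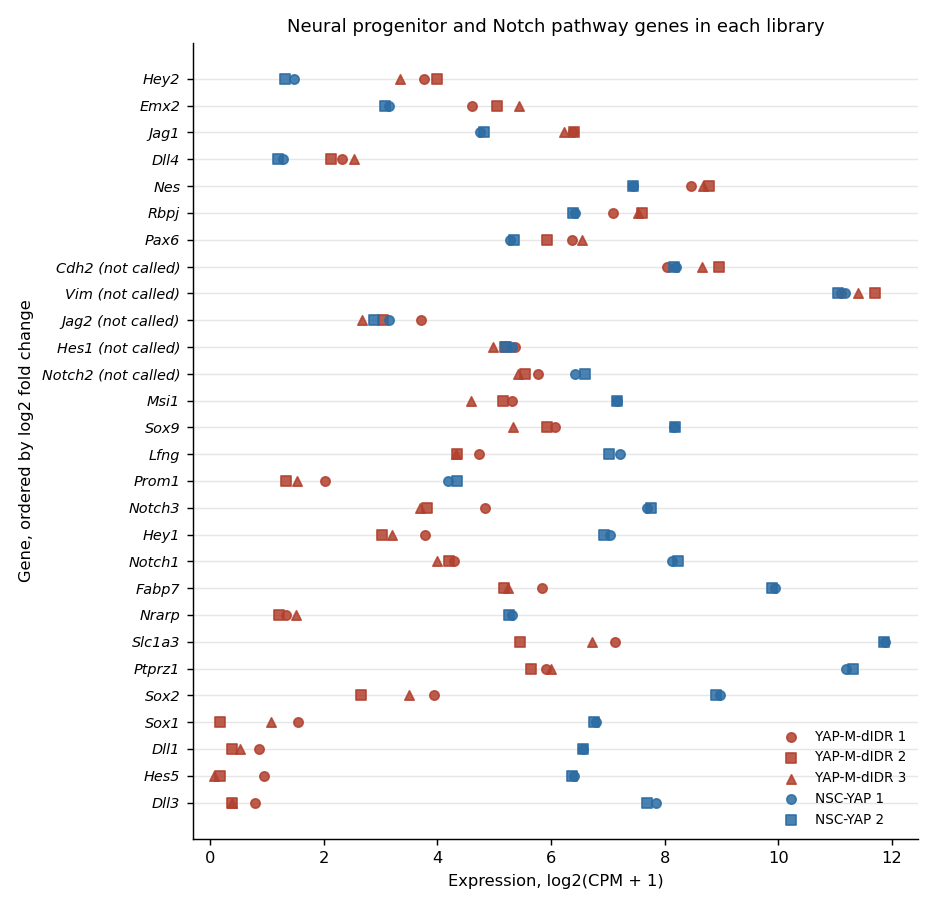
Expression of radial glia and Notch pathway genes as log2(CPM + 1) in the 5 libraries, 1 point a library. Sox2, Dll1, Dll3 and Hes5 lie at 50 CPM or more in both NSC-YAP libraries and below 15 CPM in all 3 YAP-M-dIDR libraries, while Nes and Jag1 lie higher in YAP-M-dIDR.

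Genes of more mature brain cells gave a mixed picture. In the neuronal list 8 of 16 were called higher and 4 lower, with summed levels of 706 to 769 CPM against 928 to 1001 CPM, so the sum was lower while most calls were higher. Stmn2, a tubulin regulator of growing neurites, was at 134, 240.3 and 154 CPM against 0 and 0.0408 CPM, which is 8612 times (95% counting interval 1545 to 340203) as high. Tubb3, a neuronal tubulin, was at 113, 177 and 115 CPM against 25.9 and 25.1 CPM (2.40 ± 0.44). Dcx, a microtubule protein of migrating neuroblasts, was lower at 1.97, 2.48 and 1.5 CPM against 52.2 and 58.4 CPM (-4.80 ± 0.19), and Map2, of dendrites, was at 55.5, 21.2 and 53.6 CPM against 654 and 719.7 CPM (-3.98 ± 0.37). Synaptic genes were uneven inside YAP-M-dIDR: Snap25 was at 57.7, 6.4 and 42.3 CPM against 2.32 and 1.79 CPM (4.11 ± 0.97, adjusted p = 0.00282), lowest in replicate 2. Myelin genes had the same order of replicates, with Mbp at 625, 206 and 349 CPM against 2.85 and 2.41 CPM (7.22 ± 0.85) and Mobp at 249, 36.8 and 80.9 CPM against 0.488 and 0.408 CPM (8.08 ± 1.36, 7.02 without YAP-M-dIDR replicate 1). Of 12 oligodendrocyte lineage genes 7 were called higher and 3 lower, the last being the precursor genes Pdgfra (-2.49) and Cspg4 (-2.80, -3.41 without YAP-M-dIDR replicate 1) and the enzyme gene Cnp (-1.43, not called, at -1.45 to -1.15, without YAP-M-dIDR replicate 2, without YAP-M-dIDR replicate 3, without NSC-YAP replicate 1 or without NSC-YAP replicate 2). Astrocyte genes split into Gfap, the astrocyte filament, at 1082, 309 and 596 CPM against 10.6 and 11.8 CPM (5.88 ± 0.51), Aqp4, the water channel, at 196, 102 and 123 CPM against 2.69 and 3.18 CPM (5.58 ± 0.46), and Aldoc, at 146, 32.7 and 57.6 CPM against 1494 and 1482 CPM (-4.24 ± 0.51, -5.04 without YAP-M-dIDR replicate 1). The summed myelin and oligodendrocyte level was 1434, 489 and 731 CPM in YAP-M-dIDR replicates 1 to 3 against 404 to 419 CPM. The part of mature brain cells in these genes was not tested.

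Ependymal cells carry motile cilia, and the list of their genes was low in both groups. Of 18 tested, 6 were called higher and 7 lower (background 27.4% and 20.4%), with a median of 1.05 that turned to -0.71 with quantile scaling. Foxj1, the factor that switches on motile cilia genes, was at 13.6, 4.28 and 4.77 CPM against 37.3 and 37.5 CPM (-2.31 ± 0.45, -3.04 without YAP-M-dIDR replicate 1, adjusted p = 0.000767), and Rfx3, another cilia factor, at 7.61, 6.49 and 10.1 CPM against 57.1 and 66 CPM (-2.93 ± 0.19). Both were lower in every YAP-M-dIDR library. Dnaic1, a dynein arm gene, was at 1.11, 0.225 and 0.353 CPM against 6.64 and 6.4 CPM (-3.51 ± 0.55, -4.47 without YAP-M-dIDR replicate 1).

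Most of the calls among the response genes of FGF signalling were lower. Of 12 FGF and ERK feedback genes, 7 were called lower and 2 higher, with a median of -1.26. The factors Etv5 and Etv4 were at 32.9, 30.1 and 32.4 CPM against 195 and 207 CPM (-2.66 ± 0.09, adjusted p = 4.73e-09) and at 20.05, 23.1 and 34.1 CPM against 166 and 169 CPM (-2.70 ± 0.22). The groups did not overlap in either gene. Etv1 (-4.08, -4.68 without YAP-M-dIDR replicate 1), the inhibitors Spry2 (-2.13), Spry4 (-1.20), Spred1 (-1.33) and Il17rd (-2.34) were also lower, and the phosphatases Dusp4 (2.98, 2.31 without YAP-M-dIDR replicate 3) and Dusp5 (1.94) were higher. The receptors Fgfr3, at 21.2, 19 and 26.5 CPM against 404 and 407 CPM (-4.19 ± 0.18), and Fgfr1, at 73.3, 64.9 and 46.8 CPM against 318 and 319 CPM (-2.37 ± 0.24), were lower. Other receptors and ligands were higher, among them Met, the receptor for HGF, at 93.9, 148 and 162 CPM against 9.97 and 9.5 CPM (3.79 ± 0.29), Epha2, an ephrin receptor, at 67.9, 86.3 and 106 CPM against 2.08 and 2.16 CPM (5.35 ± 0.22), and Pdgfb, a growth factor for mural cells, at 99.8, 97.2 and 88.3 CPM against 0.57 and 0.734 CPM (7.18 ± 0.18). Ereg, an EGF receptor ligand, was at 23.1, 13.8 and 6.71 CPM with no count in NSC-YAP, at least 239.8-fold higher by the floor of 3 counts over the NSC-YAP pair. Egfr itself, at 176, 196 and 115 CPM and 311 and 332 CPM, was not called (-0.98 ± 0.20, adjusted p = 0.000973) since its difference stayed under 1 in size, and it was called without YAP-M-dIDR replicate 1 (-1.04), YAP-M-dIDR replicate 2 (-1.14) or NSC-YAP replicate 1 (-1.04). Of these 17 receptor and ligand genes 8 were called higher and 3 lower (background 27.4% and 20.4%).

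Ligands and targets of the TGF-beta family were among the largest differences. Of 17 genes 12 were called higher and 2 lower, with a median of 2.94. Inhba, the subunit of activin A, was at 321, 458 and 307 CPM with 0 counts in both NSC-YAP libraries, at least 5909-fold higher. Bmp4, a dorsalizing morphogen, was at 307, 325 and 255 CPM against 0.0814 and 0.122 CPM (11.43 ± 0.24, adjusted p = 5.11e-10). Tgfb1 was at 118, 118 and 126 CPM against 2.65 and 2.24 CPM (5.62 ± 0.17) and Tgfb3 at 383, 311 and 247 CPM against 12.8 and 14.3 CPM (4.54 ± 0.33). The feedback inhibitors Smad7 (2.77) and Smad6 (3.41), and Nog (2.94), which binds BMPs, were higher too. Tgfbi, a matrix protein that TGF-beta induces, was at 126, 259 and 230.5 CPM against 0.855 and 1.1 CPM (7.71 ± 0.48). Bmp7 (-2.82, -3.98 without YAP-M-dIDR replicate 1) and Id2 (-1.08, not called at -0.89 without YAP-M-dIDR replicate 2 or at -0.97 without YAP-M-dIDR replicate 3) were called lower.

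Most matrix and actin genes were higher. Of 24 extracellular matrix and mesenchymal genes 20 were called higher and 1 lower, and the summed level was 9136 to 10993 CPM against 3795 to 3797 CPM. Col5a2, a fibrillar collagen chain, was at 1203, 1629 and 1348 CPM against 0.122 and 0.204 CPM (13.02 ± 0.40, adjusted p = 2.57e-09). Col4a1, of basement membranes, was at 749.5, 984 and 1446 CPM against 65 and 64.9 CPM (4.03 ± 0.29), and Fn1, fibronectin, at 2149, 2257 and 1964 CPM against 434 and 478 CPM (2.22 ± 0.23). Thbs1, a matricellular protein, was at 939, 1400 and 867 CPM against 6.8 and 6.36 CPM (7.34 ± 0.37). Col1a2, at 851, 582 and 197 CPM against 0.773 and 0.652 CPM (9.56 ± 1.01), and Lox, the collagen crosslinking enzyme, at 982, 452 and 152 CPM against 0.57 and 0.489 CPM (9.95 ± 0.97, 9.14 without YAP-M-dIDR replicate 1), were highest in YAP-M-dIDR replicate 1 and lowest in replicate 3, which still lay above NSC-YAP. The mesenchymal factor Twist1 was at 48.8, 27.8 and 31.5 CPM against 0.0814 and 0.122 CPM (8.40 ± 0.55), and Snai2 at 34.5, 13.2 and 7.51 CPM with no count in NSC-YAP. Sparc, at 2013, 1748 and 1502 CPM and 2903 and 2852 CPM, was not called (-0.71 ± 0.15). The gene called lower was Tnc, tenascin C, at 81.3, 75.8 and 78.2 CPM against 154 and 160.02 CPM (a log2 difference of -1.0, adjusted p = 0.0497), and its call was lost whichever of the 5 libraries was left out.

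Of 17 actin cytoskeleton and SRF target genes 16 were called higher and 0 lower, with a median of 3.63. Actn1, an actin crosslinker, was at 710.1, 872 and 686 CPM against 62.4 and 59.8 CPM (3.63 ± 0.14, adjusted p = 7.55e-09), Tpm1, a tropomyosin, at 1561, 1924 and 1664 CPM against 199.99 and 196 CPM (3.12 ± 0.13), and Zyx, a focal adhesion protein, at 1009, 1147 and 794 CPM against 76 and 74.9 CPM (3.70 ± 0.18). Acta2, smooth muscle actin, was at 4147, 2346 and 940.2 CPM against 2.2 and 1.39 CPM (10.43 ± 0.74, 9.84 without YAP-M-dIDR replicate 1) and was highest in replicate 1 and lowest in replicate 3. Actg1, a cytoplasmic actin, was the member not called, at 2831, 3607 and 3813 CPM and 3509 and 3316 CPM. The smooth muscle and pericyte list, which holds Acta2, had 8 of 10 genes called higher and 2 lower. Those lower were Cspg4 and Notch3, whose values are given above. The list summed to 4824, 3016 and 1481 CPM in YAP-M-dIDR replicates 1 to 3 against 405 to 428 CPM. Pdgfrb, the pericyte receptor, was at 68.9, 117 and 94.2 CPM against 0.163 and 0.163 CPM (9.12 ± 0.35), and the part of mural cells in the actin genes was not tested.

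Integrins and laminins divided evenly, with 7 of 19 called higher and 7 lower (background 27.4% and 20.4%). Their median of 0.32 turned to -0.01 with quantile scaling. Itga3, a laminin receptor chain, was at 386, 426 and 513 CPM against 11.8 and 11.5 CPM (5.24 ± 0.19), and the shared chain Itgb1 at 1063, 1312 and 1562 CPM against 506 and 489 CPM (1.40 ± 0.18). Itgb8, which activates TGF-beta and is common in neural progenitors, was lower at 41.3, 34.5 and 41.9 CPM against 295 and 339 CPM (-3.01 ± 0.22), as were the laminin chains Lamc1 (-1.76), Lama5 (-1.59) and Lama1 (-3.78). Among 16 S100A, annexin and galectin genes, calcium and sugar binding proteins, 14 were called higher and 1, S100a16, lower. Anxa3 was at 365, 439 and 413 CPM against 0.0407 and 0.122 CPM (12.19 ± 0.31, 13.09 without NSC-YAP replicate 2, adjusted p = 8.99e-10), S100a6 at 709.8, 677 and 435 CPM against 0.407 and 0.408 CPM (10.52 ± 0.41), and Anxa1 at 652, 924 and 597 CPM against 0.977 and 0.856 CPM (9.62 ± 0.36). Lgals3, which macrophages also express, was at 118, 173 and 152 CPM against 0.488 and 0.326 CPM (8.48 ± 0.43). Of 9 epithelial genes tested 8 were called higher, among them keratins of simple epithelia, with Krt7 at 251, 96.3 and 129.8 CPM against 0 and 0.0815 CPM and Krt18 at 123, 83.1 and 69.8 CPM against 0 and 0.0815 CPM. Krt7 was 3936 times (95% counting interval 1089 to 32506) and Krt18 2267 times (95% counting interval 627 to 18722) as high as in NSC-YAP. The epithelial list summed to 0.612 to 0.651 CPM in NSC-YAP, so its genes passed the filter through other libraries and could hardly be called lower.

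Imprinted and oncofetal genes distinguished the groups sharply. Their summed level was 11893 to 13996 CPM in YAP-M-dIDR and 1017 to 1018 CPM in NSC-YAP. In the normal subventricular zone tissue of the series it was 3516 to 4218 CPM. Rian, an imprinted RNA given below, was higher in that tissue, at 660 to 674 CPM, than in YAP-M-dIDR. Of 16 imprinted and oncofetal genes 12 were called higher and 3 lower, with a median of 4.65. Igf2, the fetal insulin-like growth factor, was at 6846, 6282 and 10355 CPM in YAP-M-dIDR and 0.855 and 1.39 CPM in NSC-YAP. The log2 difference was 12.76 ± 0.50 (adjusted p = 7.44e-09), the groups being wide apart. H19, its imprinted neighbour, was at 120.3, 79 and 33.8 CPM against 0.244 and 0.245 CPM (8.28 ± 0.69), and Grb10, an imprinted adaptor of insulin signalling, at 752, 752 and 557 CPM against 2.24 and 2.16 CPM (8.28 ± 0.29). Meg3, the maternal RNA of the Dlk1 domain, was at 406, 187 and 174 CPM against 0.122 and 0.0408 CPM (11.53 ± 0.72, 12.43 without NSC-YAP replicate 1), and Rian, of the same cluster, at 186, 194 and 144 CPM against 0 counts, at least 2857-fold higher. Dlk1, the protein-coding gene of the domain, went the other way, at 6.03, 3.56 and 4.99 CPM against 32.3 and 28.9 CPM (-2.65 ± 0.36). The RNA-binding Igf2bp1 was at 59.5, 131 and 169 CPM against 0.0407 and 0 CPM, 5853 times (95% counting interval 1050 to 231206) as high, and Hmga2, a chromatin protein of fetal cells, at 209.99, 333 and 308 CPM against 11.2 and 12.9 CPM (4.55 ± 0.39). Peg10, Plagl1 and Cdkn1c rose by 4.74 ± 0.37, 3.78 ± 0.34 and 6.83 ± 0.49, and Peg3 (-1.72) and Mest (-1.05, not called at -0.74 without YAP-M-dIDR replicate 3 or at -1.05 without NSC-YAP replicate 1) were lower.

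Hox genes, which mark position along the body axis behind the midbrain, differed by cluster. All 9 HoxB genes tested were called higher, and all were at 0 counts in NSC-YAP. Hoxb9 was at 39.7, 60.4 and 27.2 CPM, at least 692-fold higher, and Hoxb4 at 20.7, 21.5 and 9.41 CPM, at least 282-fold higher. The HoxB sum was 77.9 to 178 CPM in YAP-M-dIDR and 16.3 to 27.6 CPM in the YAP-M tumours. The 7 HoxC genes tested and the 7 HoxD genes tested were likewise all higher. The NSC-YAP sums were 0 CPM for HoxB and HoxC and 0.285 CPM for HoxD. Genes of these 3 clusters could thus pass the filter only through other libraries and could hardly be called lower. The direction of these calls was nearly fixed in advance and is no separate result. Hoxc13 was at 5.04, 4.64 and 5.03 CPM with no count in NSC-YAP, at least 80.3-fold higher, and Hoxd13 at 25.7, 2.3 and 7.9 CPM against 0.0407 and 0 CPM, 599 times (95% counting interval 107 to 23669) as high. The HoxD sum of YAP-M-dIDR, 4.23 to 39.8 CPM, was below the 70.3 to 159.6 CPM of the tumours. HoxA had the opposite order at its anterior end. Of 10 HoxA genes tested 5 were called lower and 2 higher, with Hoxa5 at 1.71, 2.84 and 4.06 CPM against 28.2 and 26.1 CPM (-3.24 ± 0.33, adjusted p = 5.91e-06) and Hoxa3 at 0.385, 0.811 and 1.5 CPM against 12.3 and 11.3 CPM (-3.71 ± 0.58). The 2 HoxA genes called higher, Hoxa9 and Hoxa11, were posterior and highest in YAP-M-dIDR replicate 3, at 6.84 CPM and 5.65 CPM against 0.214 CPM and 0.0427 CPM in replicate 1. The call of Hoxa9 was lost without NSC-YAP replicate 2 (adjusted p = 0.0504), that of Hoxa11 without NSC-YAP replicate 1 (0.0601) or 2 (0.061), and both were lost with quantile scaling.

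**Figure D5:**
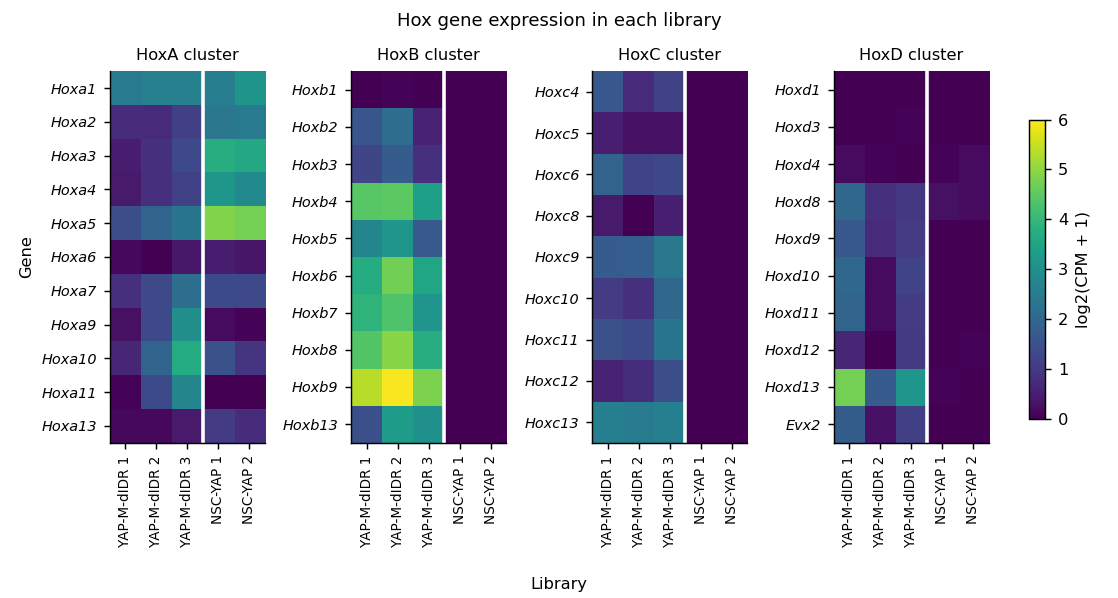
Heat map of log2(CPM + 1) for the genes of the 4 Hox clusters, a row a gene, a column a library and a panel a cluster, with the 3 YAP-M-dIDR libraries left of the white line and the 2 NSC-YAP libraries right of it. HoxB genes have no count in NSC-YAP and reach 60.4 CPM (Hoxb9) in YAP-M-dIDR, whereas Hoxa2 to Hoxa5 lie higher in NSC-YAP.

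Other position genes did not follow a single region. Of 14 forebrain genes 6 were called higher and 3 lower, and of 12 midbrain, hindbrain and spinal genes 3 higher and 6 lower (background 27.4% and 20.4%). Nr2f2, a nuclear receptor of caudal telencephalon and of veins, was at 63.9, 87.5 and 64.2 CPM against 0 and 0.0815 CPM, while its relative Nr2f1 was lower at 11.5, 4.82 and 20.9 CPM against 126 and 126 CPM (-3.34 ± 0.53, -3.94 without YAP-M-dIDR replicate 3). Lhx6, of ventral interneurons, was at 25.3, 27.1 and 24.3 CPM against 0.407 and 0.204 CPM (6.36 ± 0.36), and Nkx2-1, also ventral, at 4.27, 4.14 and 28.2 CPM with no count in NSC-YAP. Irx3 was lower at 1.5, 0.901 and 1.5 CPM against 25.7 and 23.5 CPM (-4.24 ± 0.41), as were Irx5 (-5.55, -6.62 without YAP-M-dIDR replicate 1), Lmx1b (-3.54, -4.26 without YAP-M-dIDR replicate 1), En1 (-4.50, -6.09 without YAP-M-dIDR replicate 1) and En2 (-2.74), genes of the midbrain and hindbrain. Pax3, of the dorsal neural tube and neural crest, was at 29.1, 27.3 and 19.6 CPM with no count in NSC-YAP, at least 414-fold higher.

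Immune genes were higher throughout the macrophage, interferon and complement lists and, with 1 exception, among the chemokines. Csf1r, the receptor that macrophages need to survive, was at 365, 342 and 334 CPM against 0.0407 and 0.408 CPM (10.56 ± 0.44, adjusted p = 9.21e-09), with 9.70 without NSC-YAP replicate 1 and 12.87 without replicate 2. C1qa, a complement chain made by microglia, was at 911, 607 and 488 CPM against 0.122 and 0.367 CPM (11.39 ± 0.48, 10.80 without NSC-YAP replicate 1, 12.34 without NSC-YAP replicate 2). P2ry12, a receptor of resident microglia, was at 35, 24.2 and 19.6 CPM against 0 and 0.0408 CPM, 1296 times (95% counting interval 232 to 51202) as high. Csf1, the ligand of Csf1r, was at 716, 796 and 615 CPM against 37.6 and 38.7 CPM (4.22 ± 0.19). All 20 interferon and antigen presentation genes were called higher, with a median of 5.65. The class I light chain B2m was at 768, 1068 and 1016 CPM against 159 and 157 CPM (2.58 ± 0.21), and Irf7, a regulator of interferon genes, at 49.2, 56.2 and 52.7 CPM against 0.163 and 0.0815 CPM (8.69 ± 0.43). Class II genes were lowest in YAP-M-dIDR replicate 1, with Cd74, the invariant chain, at 51.6, 711 and 492 CPM against 0.0814 and 0.978 CPM (9.61 ± 1.34, 8.98 without YAP-M-dIDR replicate 2, 8.71 without NSC-YAP replicate 1, 12.22 without NSC-YAP replicate 2). Of 18 chemokine ligands tested 17 were called higher. Cxcl16 was at 64.4, 95.3 and 95.9 CPM against 0.285 and 0.0815 CPM (8.82 ± 0.42, 9.92 without NSC-YAP replicate 1, 8.18 without NSC-YAP replicate 2), and Ccl12 at 35.2, 41.4 and 38.9 CPM against 0.0407 and 0 CPM. The exception was Cx3cl1, a neuronal ligand for microglia, at 38.1, 18.4 and 35 CPM against 112 and 113 CPM (-1.88 ± 0.31). All 11 complement genes tested were higher, C3, the central component, at 139, 47.6 and 38.9 CPM against 0.692 and 0.285 CPM (7.25 ± 0.72, 6.45 without YAP-M-dIDR replicate 1, 8.01 without NSC-YAP replicate 1) and its receptor C3ar1 at 67.2, 72.7 and 63.6 CPM against 0.0814 and 0.0408 CPM. The macrophage sum differed between the groups in the same direction, 4232 to 5712 CPM against 44.4 to 47.2 CPM. Inside YAP-M-dIDR it was 5712, 4556 and 4232 CPM in replicates 1 to 3, and the complement sum was 556, 345 and 298 CPM. The order differed for the interferon and antigen presentation sum, 1931, 3983 and 3321 CPM, and the chemokine sum, 456, 486 and 400 CPM. The part of macrophages in these lists was not tested.

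Vessel and choroid plexus genes followed. Of 12 endothelial genes 11 were called higher, Pecam1, an adhesion molecule of vessels, being at 15.8, 13.6 and 17.4 CPM against 0.407 and 0.245 CPM (5.56 ± 0.32) and Cldn5, of tight junctions, at 30.1, 14.2 and 23.9 CPM with no count in NSC-YAP, at least 375-fold higher. Of 7 erythroid genes tested 5 were called higher, Hba-a1, a haemoglobin chain, being at 11.6, 30.1 and 32.4 CPM against 0.773 and 0.734 CPM. The choroid plexus list, 8 of 9 genes higher, was highest in replicate 1: it summed to 717, 86.3 and 56.4 CPM in YAP-M-dIDR replicates 1 to 3 against 1.26 to 1.47 CPM. With so low a sum in NSC-YAP, genes of this list could hardly be called lower. Ttr, the transthyretin of choroid epithelium, was at 653, 60.7 and 7.02 CPM against 0 and 0.0408 CPM, with adjusted p = 0.0158, and was no longer called without NSC-YAP replicate 1 (adjusted p = 0.0917) or replicate 2 (0.0884).

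Few proliferation genes were called, beside a background of 27.4% higher and 20.4% lower. Of 20 DNA replication and mitosis genes 3 were called higher (Rrm2, Ccne1 and Mcm6) and 1 lower (Cdc20, -1.07 ± 0.28, not called at -0.86 without YAP-M-dIDR replicate 1), with a median of 0.26. Mki67, the common proliferation marker, was at 82.4, 146 and 180.5 CPM against 165 and 190.2 CPM and was not called (-0.38 ± 0.31, adjusted p = 0.29). Ccne1, the cyclin of the entry into S phase, was at 49.5, 57 and 44.5 CPM against 11.6 and 9.78 CPM (2.23 ± 0.30). Among the cell cycle regulators of G1, Cdk6 was much higher at 212, 269 and 183 CPM against 10.2 and 11.3 CPM (4.37 ± 0.21, adjusted p = 2.11e-08), and the inhibitor Cdkn1c at 1002, 1344 and 470.3 CPM against 8.63 and 7.83 CPM. Ccnd1 was lower at 104, 68.7 and 70.8 CPM against 178 and 179 CPM (-1.14 ± 0.20), as were Cdkn1b (-2.07), Cdkn2c (-1.94), Cdkn2a (-1.34) and Rb1 (-1.46). Of 12 p53 targets 5 were called lower and 1 higher. Trp53inp1, a stress protein, was at 16.1, 12.2 and 11.9 CPM against 95.9 and 96.8 CPM (-2.84 ± 0.13), and Perp, a desmosomal p53 target, at 12.8, 44.4 and 71 CPM against 0.326 and 0.408 CPM (6.84 ± 0.92).

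Glycolysis and cholesterol genes leaned to the lower side, beside a background of 27.4% higher and 20.4% lower. Of 15 glycolysis and hypoxia genes 5 were called lower and 1 higher, with a median of -0.78. Vegfa, the vessel growth factor that hypoxia induces, was at 217, 276 and 222 CPM against 869 and 980.01 CPM (-1.96 ± 0.15, adjusted p = 7.14e-07), Pgk1 at 389, 613 and 556 CPM against 1603 and 1485 CPM (-1.57 ± 0.19), and Pdk1 at 39.3, 47.1 and 38 CPM against 197 and 183 CPM (-2.20 ± 0.16). Of 16 cholesterol genes 7 were called lower and 1 higher, with a median of -0.92. Hmgcs1, an early enzyme of the pathway, was at 86.7, 116 and 124 CPM against 819.9 and 822 CPM (-2.92 ± 0.19), and Srebf2, the factor that drives it, at 107, 126 and 151 CPM against 637 and 649 CPM (-2.33 ± 0.17). Of 15 genes of the ATF4 amino acid response 4 were called lower, not far from the background share, and 2 higher. The 13 mitochondrially encoded messages summed to 54532 to 57716 CPM against 70593 to 71940 CPM, and 1 of them, mt-Nd5, was called lower (-1.13 ± 0.21). Their median log2 difference of -0.21 turned to 0.05 with quantile scaling. Of 12 AP-1 and immediate early genes 6 were called higher and 4 lower, Junb being at 138, 149.7 and 154 CPM against 28.9 and 27 CPM (2.40 ± 0.11) and Jun at 57.5, 31.7 and 32.4 CPM against 155 and 153 CPM (-1.93 ± 0.21).

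Ranked by fitted difference over genes with no overlap between the groups, the largest rise outside the lists was Prl3a1, a placental prolactin family hormone, at 185, 382 and 170.04 CPM with 0 counts in NSC-YAP, at least 3995-fold higher. Slc39a8, a zinc and manganese transporter, was at 169, 246 and 304 CPM against 0 counts, at least 3903-fold higher. Ptgs2, the inducible enzyme of prostaglandin synthesis, was at 442, 616 and 432 CPM against 0.0407 and 0.0408 CPM, 12157 times (95% counting interval 3365 to 100387) as high. Fcrls, Ly86, Dock2, Trem2 and Fcgr1, genes of immune cells, were at 0 counts in NSC-YAP. They were at least 2239-fold, at least 1619-fold, at least 1005-fold, at least 977-fold and at least 958-fold higher. Nup62cl, U90926, Ptprq, Il31ra and Plac8 completed the 15 largest rises, each also with 0 counts in NSC-YAP. At the other end, Slc6a11, a GABA transporter of astrocytes, was at 19.1, 1.89 and 4.77 CPM against 1238 and 1252 CPM (-7.17 ± 0.94, -8.54 without YAP-M-dIDR replicate 1), and Sox8, a glial SOX factor, at 5.68, 2.3 and 3.89 CPM against 435 and 428 CPM (-6.76 ± 0.40). Osr2, a zinc finger factor, was at 0.128, 0 and 0 CPM against 17.1 and 14.6 CPM, 360.5 times (95% counting interval 123 to 1752) as high in NSC-YAP. Other large falls were Olfr1349, an olfactory receptor gene (at least 367-fold lower), Btbd17 (-7.50, -8.73 without YAP-M-dIDR replicate 1), Fam181a (-7.35, -8.11 without YAP-M-dIDR replicate 1), Cdh4 (-6.78, -7.38 without YAP-M-dIDR replicate 1), Dmrtb1 (-6.77), Pcdhb11 (-6.77, -7.53 without YAP-M-dIDR replicate 1) and Dpf3 (-6.66).

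Among genes of substantial level in both groups (a mean of at least 20 CPM in each), the largest rises were those of Anxa2, at 662, 1119 and 959.9 CPM against 27.8 and 26.6 CPM (5.07 ± 0.26), and Col4a2, at 505, 676 and 1044 CPM against 21.5 and 24.1 CPM (5.03 ± 0.32). Serpina3n, an acute phase protease inhibitor of reactive astrocytes, was at 971, 338 and 343 CPM against 25.2 and 24.2 CPM (4.48 ± 0.63, 3.79 without YAP-M-dIDR replicate 1), highest in replicate 1. Cited2, a coactivator partner, was at 416, 657 and 521 CPM against 26.4 and 24.8 CPM (4.37 ± 0.21), and Phldb2, a cortical adhesion protein, at 363, 542 and 444 CPM against 20.4 and 22.3 CPM (4.40 ± 0.24). Cald1 and Cnn2, actin-binding proteins, and Anxa5 rose by 4.26 ± 0.17, 4.58 ± 0.16 and 4.38 ± 0.16. The largest falls included Olig1, Ptprz1 and Slc1a3, whose values are given above. Bcan, the proteoglycan brevican, was at 44.7, 15.1 and 26.4 CPM against 1335 and 1317 CPM (-5.53 ± 0.34), Ptn, a heparin-binding growth factor and ligand of Ptprz1, at 45.2, 18.4 and 31.9 CPM against 1234 and 1159 CPM (-5.23 ± 0.30), and Serpine2, a secreted protease inhibitor, at 58.6, 37.9 and 64.9 CPM against 2211 and 2152 CPM (-5.34 ± 0.22). Mlc1 (-5.15, -5.74 without YAP-M-dIDR replicate 1), Ttyh1 (-5.00, -5.63 without YAP-M-dIDR replicate 1), Plat (-4.84) and Cspg5 (-4.78, -5.43 without YAP-M-dIDR replicate 1) followed.

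The YAP-M-dIDR libraries also differed from each other more than the NSC-YAP pair did. Over 7934 genes with a mean of at least 20 CPM, the median range between the 3 YAP-M-dIDR libraries was 0.36 on the log2 scale, and 143 genes ranged over 4-fold or more. Of these 143 genes, 107 were highest in replicate 1. Over 7883 genes in NSC-YAP, the median range was 0.07 and 0 genes ranged that far. A range over 3 libraries is wider than over 2 by its construction. After Ttr, the widest ranges were those of Actc1, cardiac actin, at 233, 35.8 and 7.02 CPM, Ppbp, a platelet chemokine, at 300.3, 30.6 and 11.6 CPM, and Fabp4, a fatty acid binding protein of fat and vessels, at 126, 8.74 and 5.3 CPM. These 3 and Dcn, at 219, 24.6 and 10.5 CPM, were highest in replicate 1, and Dcn, a matrix proteoglycan, kept a log2 difference of 7.11 from NSC-YAP without it, against 9.38 ± 1.80 with it, and 10.84 and 8.65 without NSC-YAP replicate 1 or 2. H2-Eb1, a class II chain, at 5.43, 90.6 and 115 CPM, and Cxcl13, a B cell chemokine, at 9.79, 148 and 179 CPM, were lowest in replicate 1.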

How the data were processed

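The authors deposited, per sample, gene counts of TruSeq RNA-seq libraries made from total RNA. Per the submitters' processing notes, TopHat2 and mm10 were used, with no version. The counting program and the strand setting were not given in the sources used here, so overlapping, antisense or near-identical genes may share reads. Rows were summed by symbol (53090 rows, 52850 symbols). Counts per gene were tested with edgeR 4.0.16 (R 4.3.3): TMM scaling, quasi-likelihood fit over all 12 RNA-seq libraries, contrast YAP-M-dIDR minus NSC-YAP, a minimum of 1 CPM in any 2 libraries, Benjamini-Hochberg adjustment over all 18329 genes. CPM use TMM-scaled library totals. Called means adjusted p under 0.05 and a log2 difference of at least 1. Where a group had 0 counts, folds are lower bounds from 3 counts over the group (0.0611 CPM for NSC-YAP, 0.044 for YAP-M-dIDR); for 1 to 3 counts the ratio has an exact 95% interval. Floors and intervals cover counting error only.

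Genes named were the 15 largest rises and falls whose groups did not overlap and whose higher group averaged 5 CPM or more, the 10 largest each way with 20 CPM or more in each group, members of 44 gene lists, and Yap1, Mamld1, Xist and Ddx3y. The comparison and the lists were chosen with earlier results of these data known. On simulated counts of 17394 genes for this comparison, 26 of 100 genes changed 2-fold and 90 of 100 changed 4-fold were called, with 4 unchanged genes called. The simulation gave all groups the same mean and spread per gene, apart from the changed genes. In the data 47.8% of genes were called, and the groups differed in spread. The simulated rates therefore need not hold for the data. Replicate numbers come from the titles and were not used as pairs in the main fit. Same-numbered deviations from the group mean correlated at 0.0037 for number 1 and at -0.0085 for number 2. The deviations of the 2 NSC-YAP libraries are small and mirror each other, so these values cannot decide whether the numbers mark pairs. Alternatives were other filters, RLE and quantile scaling (limma 3.58.1), DESeq2 1.42.0, the 5 libraries alone, a replicate block, the highest entry per symbol, adjusted p alone and each library left out. The 5 ChIP and CUT&RUN samples were not analysed here. Some genes of the lists are not reported by name here.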

Additional observations from a re-analysis of the deposited data

How the results depend on the processing

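The counts of calls, 5026 higher and 3744 lower, were 3700 and 4657 with quantile scaling, and 6884 and 5792 with adjusted p alone. The other filters, scalings and tools gave 3764 to 6045 higher and 2892 to 4284 lower, DESeq2 giving 5274 and 3612. Leaving out each library in turn gave 4411 to 4952 higher and 3329 to 3970 lower. The share of calls that were higher was 57.3% in the main fit and 44.3% with quantile scaling. The Yap1 difference of 1.27 on the log2(CPM + 1) scale was 0.71 to 2.10 with each library left out.

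The replicate block, which treats equal replicate numbers as pairs, gave 4886 and 3766 calls over all 12 libraries and 4151 and 3188 over the 5 compared libraries. The numbers come from the titles and are not known to mark pairs, so a call lost under the block need not be a weaker effect. Of the named genes called in the main fit, Yap1, Mest, Rbpj, Hoxa11 and Tnc were not called under the block over 12 libraries, and Ddx3y, not called in the main fit, was called lower under it (-7.12, adjusted p = 0.0127) and under that over the 5 libraries (-9.41, adjusted p = 0.000439). Genes near 0 changed sign: with quantile scaling Foxf2 was -0.061, Gadd45a -0.095 and Wwtr1 5.47e-05. Under the block over 12 libraries Gadd45a was -0.050 and Hes1 0.0034, and over the 5 libraries Actg1 was -0.056 and Hes1 0.061. With each library left out, Actg1 ranged from -0.081 to 0.12, Gadd45a from -0.069 to 0.064, Hes1 from -0.17 to 0.028 and Maml1 from -0.0059 to 0.34. None of these 6 genes was called in the main fit. The cause of these changes was not tested.

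Counts near 0 in NSC-YAP limit the largest folds, and 2 libraries limit what is known of its spread. In simulated data the fit called 26 of 100 genes changed 2-fold, a change that lies on the cutoff, so the calling rule shares in this count.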

Other observations

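Chromosome 15 stood apart from the other chromosomes, a feature singled out after its values were seen. Over 274 of its genes with at least 20 CPM in both groups, the median log2 difference of YAP-M-dIDR minus NSC-YAP was -0.60, and 73.0% of these genes were below 0. The medians of the other chromosomes lay between -0.12 and 0.18. Another scaling or tool, the 5 libraries alone and each library left out gave -0.55 to -0.65. Along the chromosome, 5 successive runs of these genes had medians of -0.35, -0.52, -0.37, -0.64 and -0.88. The offset went with the NSC-YAP libraries. Against the subventricular zone tissue of the series, a normal stem cell niche, the chromosome 15 median was 0.97 and 0.99 in the NSC-YAP libraries and 0.05, 0.17 and 0.27 in the YAP-M-dIDR libraries, while over the other chromosomes it was 0.04 to 0.19 in all 5. Genes of this chromosome named above include Slc1a3, Mlc1, Osr2, Srebf2 and the HoxC cluster, whose own differences are far larger than this offset or go the other way.

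Of the lists not described above, 14 coactivator genes had 2 called higher and 2 lower (background 27.4% and 20.4%), the latter Maml2 and Med12 (-1.15). Of 5 pluripotency genes tested 2 were called each way. Esrrb, a factor of ES cells, was at 0.214, 0.0901 and 0.132 CPM against 2.36 and 3.14 CPM (-4.19 ± 0.65), and Nanog at 0.385, 0.18 and 0.221 CPM against 2.73 and 1.75 CPM (-3.07 ± 0.47), low levels in both groups. Klf4, which many tissues also express, was higher at 92.2, 81.2 and 62.8 CPM against 8.47 and 10.5 CPM (3.05 ± 0.25). Of 11 neutrophil and mast cell genes 4 passed the filter and were called higher, and of 12 lymphocyte genes 2. Each list summed to less than 1 CPM in NSC-YAP, so its genes could pass the filter only through other libraries. They could hardly be called lower, and the direction of these calls is no separate result. The neutrophil gene Csf3r, which macrophages also express, was at 54.3, 27.9 and 28.4 CPM against 0 and 0.0408 CPM, 1822 times (95% counting interval 327 to 72001) as high, whereas S100a8 was at 1.41, 1.13 and 0.839 CPM and Elane at 0 counts in all 5 libraries.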
